A study of Mus musculus with 12 samples.

Results

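The genes described here build ribosomes in the nucleolus. The list held 54 genes for RNA polymerase I, nucleolar proteins, small nucleolar ribonucleoproteins and the assembly of both ribosomal subunits. It was drawn up by function, and a gene was used where a probe set carried its symbol and no other. This left 53 genes, all of which passed the filter on low values, among 17052 tested genes. Tsr1, a small subunit assembly factor, was not tested because its probe set also carried the symbol of Srr.

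Expression was measured with Affymetrix Mouse Gene 1.1 ST arrays in liver of female BALB/cByJ mice aged 2.5 months, with Pml (wt) or without it (KO). PML organises the PML nuclear bodies. The 6 groups of 2 arrays were untreated wt, untreated KO, and wt and KO liver 2 h or 6 h after intraperitoneal acetaminophen at 300 mg/kg in warmed PBS. Acetaminophen is a painkiller whose oxidised metabolite injures hepatocytes at high dose. Whether untreated mice received vehicle, and whether each array came from its own animal, is not stated in the labels, so the p-values reflect only how far these arrays differ from each other.

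Ribosome synthesis starts when RNA polymerase I copies the ribosomal DNA into 1 long precursor RNA. Small nucleolar ribonucleoproteins then modify that RNA, box C/D particles by methylation and box H/ACA particles by pseudouridylation, and large sets of assembly factors fold, cut and export the small and large subunits. The genes for these proteins are known to rise together when cells are stimulated to grow, and MYC is a known activator of many of them.

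Because MYC and related factors bind the letters CACGTG, the RefSeq promoter windows of the genes (GRCm38.p6, from 250 bases before to 50 bases after the start) were searched for them. This motif is its own reverse complement, so 1 search covers both strands. RefSeq windows matched 48 of the 54 listed genes, and 11 of these (22.9%) held the motif. A gene was counted where any of its windows held the motif, and 1356 of 13417 tested genes did (10.1%). Counted by window instead of by gene, the letters stood in 2349 of all 32851 windows (7.15%). The stretches below belong to the 4 genes with the motif whose wt rise at 6 h had the smallest p, with the motif in capitals, read 5′ to 3′ on the strand of the gene.
Ltv1, chr10:13193092-13193121, minus strand: gccctgtggaccCACGTGtggagctgccgg
Wdr43, chr17:71616220-71616249, plus strand: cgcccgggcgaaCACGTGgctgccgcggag
Nop2, chr6:125131811-125131840, plus strand: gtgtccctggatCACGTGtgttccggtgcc
Mybbp1a, chr11:72441355-72441376, plus strand: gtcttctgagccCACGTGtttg

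In Ltv1, Wdr43 and Mybbp1a the motif began 28, 17 and 40 bases after the annotated start, and in Nop2 it began 60 bases before it. Windows of Rrp9 and Ddx21, the genes with the smallest p in the same comparison, lacked these letters, and the 30 bases before their starts are shown for comparison.
Rrp9, chr9:106477279-106477308, plus strand: cgggtcttgccatgcggctggggtttagca
Ddx21, chr10:62602299-62602328, minus strand: ccgctgcggaagtgacgaataggcccggct

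The median log2 difference at 6 h was 1.20 over the 10 tested genes with it and 1.12 over the 37 without it in wt liver. In KO liver the medians were 1.37 and 1.29. A match of letters is a description of the sequence and not a binding site.

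The array median of the deposited intensity was 79.9 to 90.1, and precision is limited by having 2 arrays a group. Pml, the deleted gene, had log2 intensities in wt liver of 8.18 and 8.46 (untreated), 7.82 and 7.92 (2 h) and 7.87 and 7.88 (6 h). The KO values were 7.10 and 7.97 (untreated), 7.11 and 7.50 (2 h) and 7.09 and 7.16 (6 h). The library labelled untreated KO replicate 2, at 7.97, lay within the wt range, and the labels do not name the part of Pml that was deleted. The label of liver was borne out by 8 of 8 hepatocyte markers, whose mean log2 intensity was 12.61 to 12.84 over the arrays. In whole liver, fewer cells of a type and less RNA per cell cannot be told apart.

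Nearly all of the 53 genes rose by 6 h after acetaminophen, in both genotypes. In wt liver 48 rose and 0 fell, beside 16.5% and 22.0% of all tested genes, and the median log2 difference was 1.12 against -0.05 over all genes. In KO liver 52 rose and 0 fell, beside 15.8% and 19.1%, with a median of 1.15 against -0.05. At an unadjusted p under 0.05, 51 genes were higher and 1 lower in wt, beside 20.1% and 27.1% of all genes, and 52 and 0 in KO, beside 20.0% and 24.7%. Rises passed in both genotypes for 47 genes, whereas of all genes at most the 15.8% that rose in KO can have done so. At least a doubling (a log2 difference of 1 or more) was measured for 33 genes in wt and 36 in KO. The share of all genes that doubled was not counted. The 2 arrays at 6 h lay above both untreated arrays for 52 of 53 genes in wt and 53 of 53 in KO, beside 30.1% and 30.7% of all genes. Calls here and below are from limma at an adjusted p under 0.05 over all 17052 genes, and errors after ± are standard errors of the fit.

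**Figure D1:**
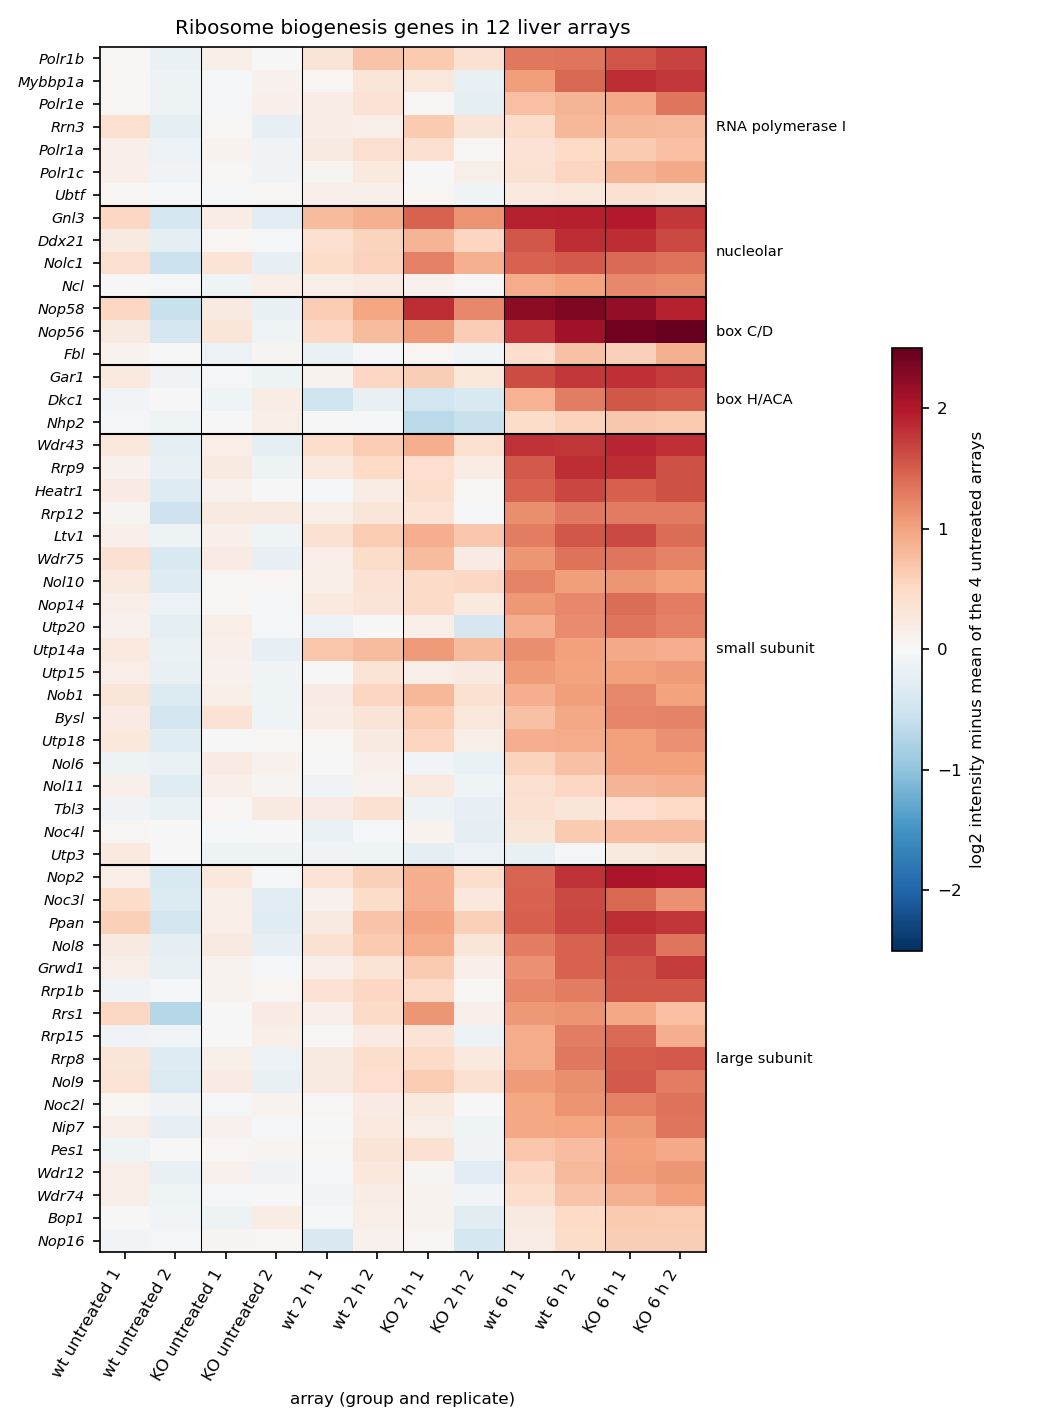
Each of the 53 genes (rows, grouped by role) in each of the 12 arrays (columns), as log2 intensity minus the mean of the 4 untreated arrays; red is higher and blue is lower. The 4 arrays at 6 h are red in nearly every row, the untreated arrays are mostly pale, the 2 h arrays lie between for many genes, with Nop58, Gnl3 and Nolc1 already red in KO 2 h replicate 1, and Utp3 stays pale in wt at 6 h.

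The 5 genes that did not pass in wt at 6 h were Ubtf at 0.26 ± 0.10, Rrn3 at 0.57 ± 0.20, Bop1 at 0.40 ± 0.16, Nop16 at 0.38 ± 0.18 and Utp3 at -0.24 ± 0.11. Their adjusted p-values in limma were 0.0548, 0.0509, 0.0733, 0.122 and 0.092, and all 5 passed as higher in KO. In KO the exception was Rrs1 at 0.76 ± 0.37 (limma adjusted p = 0.141), which rose in wt by 1.19 ± 0.37 (adjusted p = 0.0274). Rrs1, a large subunit assembly factor, had untreated wt arrays at 6.80 and 5.56, the widest gap of any listed gene in that group. Leaving out 1 array in turn gave 39 to 50 genes in wt, with the lowest counts of 39 and 40 when untreated wt replicate 2 and wt 6 h replicate 2 were dropped in turn.

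Among the 7 RNA polymerase I genes, 5 rose in wt and 7 in KO at 6 h, with medians of 0.57 and 0.92. Polr1b, the second-largest polymerase I subunit, had wt log2 intensities of 7.54 and 7.33 untreated, 7.83 and 8.21 by 2 h and 8.81 and 8.83 by 6 h. The KO intensities were 7.64 and 7.49 untreated, 8.14 and 7.87 by 2 h and 9.06 and 9.18 by 6 h. The arrays of the 3 time points did not overlap in either genotype. The 6 h rise of Polr1b was 1.39 ± 0.15 in wt (limma adjusted p = 7.88e-05) and 1.56 ± 0.15 in KO (adjusted p = 5e-05).

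Mybbp1a, a nucleolar protein that associates with polymerase I, was at 8.52 and 8.35 in untreated wt and at 9.53 and 9.91 at 6 h. In KO it was at 8.45 and 8.58 untreated and at 10.32 and 10.23 at 6 h, above both wt arrays of that time. It rose by 1.28 ± 0.17 in wt and by 1.76 ± 0.17 in KO (limma adjusted p = 0.000302 and 6.3e-05). The catalytic subunit Polr1a rose less, by 0.44 ± 0.15 in wt and 0.70 ± 0.15 in KO (adjusted p = 0.0371 and 0.00446). Its wt call was lost when untreated wt replicate 2 or either wt 6 h array was dropped, and in a fit of the compared groups alone. Polr1e, another polymerase I subunit, rose by 0.84 ± 0.15 and 1.10 ± 0.15. Ubtf, which binds the ribosomal DNA, changed least of the 7 in both genotypes.

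All 4 nucleolar proteins outside the particles rose at 6 h in both genotypes. Ddx21, an RNA helicase of the nucleolus, stood in wt at 9.02 and 8.56 untreated, 9.20 and 9.34 by 2 h and 10.33 and 10.63 by 6 h. The KO arrays stood at 8.84 and 8.74 untreated, 9.63 and 9.32 by 2 h and 10.64 and 10.45 by 6 h. The groups did not overlap in time in either genotype, and the 6 h rises were 1.70 ± 0.17 and 1.75 ± 0.17 (limma adjusted p = 6.08e-05 and 6.15e-05).

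Ncl, nucleolin, an abundant protein that binds precursor RNA, rose by 0.99 ± 0.11 in wt and 1.15 ± 0.11 in KO. A dimmer second Ncl probe set gave 0.62 in wt and 0.99 in KO. Gnl3, nucleostemin, rose by 1.90 ± 0.26 and 1.92 ± 0.26, and Nolc1, a chaperone of nucleolar particles, by 1.56 ± 0.27 and 1.32 ± 0.27. The untreated wt arrays of Gnl3 stood at 8.77 and 7.81 and those of Nolc1 at 8.50 and 7.55. All 4 of their wt and KO 6 h arrays lay above these values, at 10.02 to 10.22 for Gnl3 and 9.44 to 9.62 for Nolc1.

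The core proteins of the box C/D particles held the largest changes of the list. Nop58 stood in wt at 8.24 and 7.17 untreated, 8.35 and 8.70 by 2 h and 9.95 and 10.05 by 6 h. The KO arrays stood at 7.94 and 7.53 untreated, 9.56 and 8.93 by 2 h and 9.91 and 9.65 by 6 h. Its 6 h rise was 2.30 ± 0.32 in wt, the largest among the 53 genes there, and 2.05 ± 0.32 in KO (limma adjusted p = 0.000338 and 0.00078). Nop56, its partner in the particle, rose by 2.05 ± 0.23 in wt and by 2.40 ± 0.23 in KO, a 5.28-fold rise and the largest in KO (adjusted p = 0.00011 and 5.62e-05). Nop56 had untreated arrays at 8.63 to 9.35 over both genotypes, 6 h wt arrays at 10.86 and 11.16, and 6 h KO arrays at 11.47 and 11.62.

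Fbl, fibrillarin, the methyltransferase of the same particles, rose less, by 0.54 ± 0.14 in wt and 0.78 ± 0.14 in KO (limma adjusted p = 0.0134 and 0.00226). Its wt arrays were at 8.98 and 8.86 untreated and at 9.30 and 9.62 at 6 h, and they did not overlap. The wt call was lost when untreated wt replicate 2, or else wt 6 h replicate 2, was dropped. A second Fbl probe set gave 0.54 in wt and 0.71 in KO.

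Of the box H/ACA core proteins, Gar1, Dkc1 and Nhp2 all rose at 6 h in both genotypes. Gar1 stood in wt at 7.45 and 7.12 untreated, 7.29 and 7.73 by 2 h and 8.84 and 8.97 by 6 h. The KO arrays stood at 7.18 and 7.07 untreated, 7.82 and 7.50 by 2 h and 9.03 and 8.95 by 6 h. Its rises at 6 h, 1.62 ± 0.17 in wt and 1.87 ± 0.17 in KO, had limma adjusted p-values of 7.27e-05 and 4.06e-05, the latter the smallest of the list in KO. Dkc1, the pseudouridine synthase of the particle, rose by 1.12 ± 0.16 and 1.5 ± 0.16, and Nhp2 by 0.58 ± 0.10 and 0.60 ± 0.10. Nop10, the remaining core protein of the particle and not one of the 54 genes, had 6 h differences of -0.28 ± 0.13 and -0.27 ± 0.13 that did not pass (adjusted p = 0.109 and 0.121).

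Of the 19 tested small subunit factors, 18 rose in wt and 19 in KO at 6 h, with medians of 1.05 and 1.07. Rrp9, a protein of the U3 particle, stood in wt at 6.56 and 6.26 untreated, 6.69 and 6.96 by 2 h and 8.0 and 8.30 by 6 h. The KO arrays stood at 6.67 and 6.32 untreated, 6.87 and 6.65 by 2 h and 8.29 and 8.05 by 6 h. The 6 h arrays stood well above the earlier ones, and the rise of 1.74 ± 0.18 in wt had the smallest p of the list (limma adjusted p = 6.03e-05), with 1.68 ± 0.18 in KO (adjusted p = 8.75e-05).

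Wdr43, a factor of the early small subunit precursor, had the largest rise of this role, 1.77 ± 0.20 in wt and 1.89 ± 0.20 in KO. Its untreated arrays lay at 8.50 to 9.02 and its 6 h arrays at 10.53 to 10.64 over both genotypes. Heatr1, a large scaffold of the same precursor, rose by 1.63 ± 0.18 and 1.49 ± 0.18. Ltv1, which acts on the late small subunit, rose by 1.42 ± 0.16 and 1.51 ± 0.16, and Nob1, the nuclease of its last RNA cut, by 1.0 ± 0.22 and 1.08 ± 0.22. Nop14 rose by 1.13 ± 0.13 and 1.35 ± 0.13. Tbl3 changed least among the genes called in KO, by 0.33 ± 0.11 (limma adjusted p = 0.0343), and its call was lost in 4 of 20 alternative settings.

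Of the 17 large subunit factors, 15 rose in wt and 16 in KO at 6 h, with medians of 1.12 and 1.29. Nop2, an RNA methyltransferase, stood in wt at 8.03 and 7.49 untreated, 8.21 and 8.47 by 2 h and 9.31 and 9.67 by 6 h. The KO arrays stood at 8.13 and 7.81 untreated, 8.78 and 8.30 by 2 h and 9.90 and 9.87 by 6 h. The time points did not overlap in either genotype, and the 6 h rises were the largest of this role, at 1.74 ± 0.22 and 1.91 ± 0.22 (limma adjusted p = 0.000188 and 0.00013).

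Rrp1b, a nucleolar protein of large subunit assembly, was at 6.62 and 6.66 in untreated wt and 7.91 and 7.99 at 6 h. It rose by 1.31 ± 0.14 in wt and 1.48 ± 0.14 in KO (limma adjusted p = 7.14e-05 and 4.28e-05). Noc2l and Noc3l, which work as a pair, rose by 1.07 ± 0.12 and 1.5 ± 0.28 in wt, and by 1.29 ± 0.12 and 1.35 ± 0.28 in KO. Of the complex of Pes1, Bop1 and Wdr12, Pes1 rose by 0.78 ± 0.15 and Wdr12 by 0.68 ± 0.17 in wt. In KO the 3 proteins' genes rose by 0.93 ± 0.15, 0.60 ± 0.16 and 1.06 ± 0.17. A dimmer second Wdr12 probe set gave 0.465 in wt and 0.965 in KO. A dimmer second Pes1 probe set differed by -0.29 in wt and -0.30 in KO, so that the 2 probe sets of this gene disagreed, and with both averaged the wt call was lost (0.24, limma adjusted p = 0.0918). The wt call of Wdr12 was lost when untreated wt replicate 2 was dropped, and likewise for wt 6 h replicate 2.

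**Figure D2:**
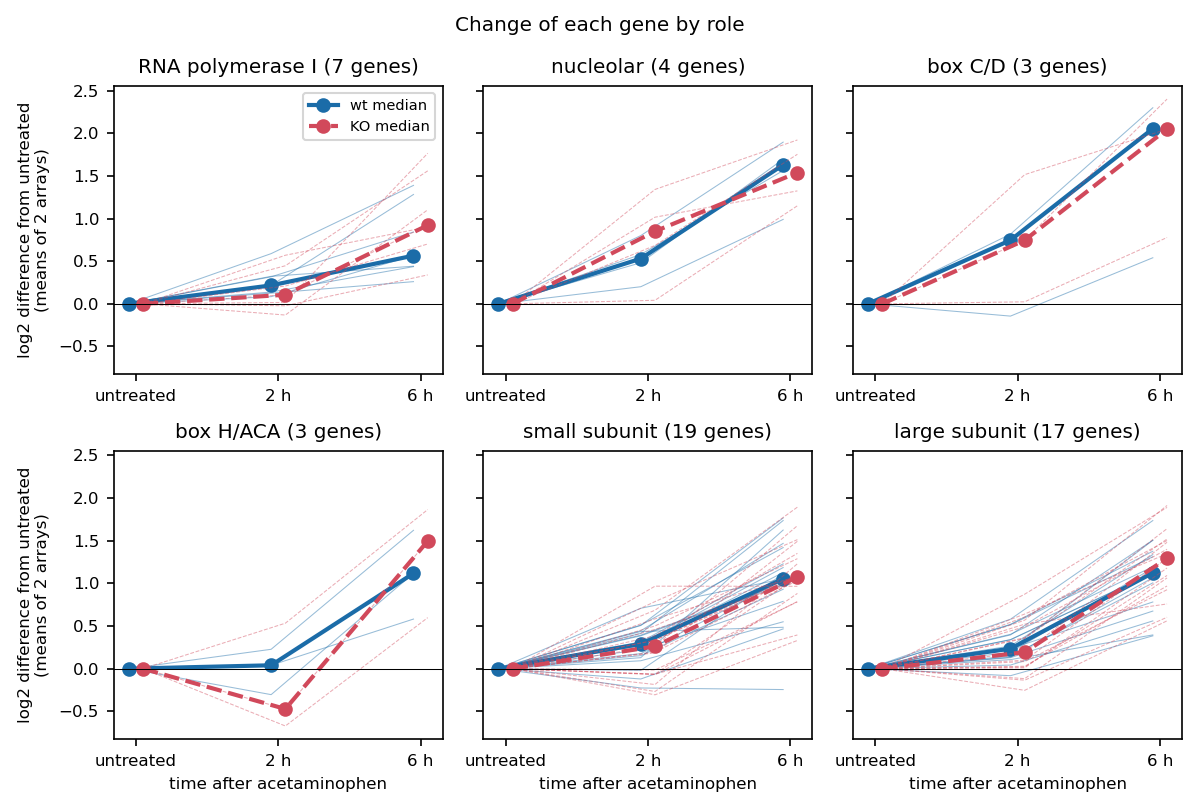
Log2 difference from untreated liver of the same genotype (vertical axis, means of 2 arrays) at each condition (horizontal axis, not to scale in time), for each gene (thin lines) and the median of each role (thick lines; wt solid blue, KO dashed red). Medians at 6 h run from 0.57 for polymerase I genes to 2.05 for box C/D genes in wt, and the box H/ACA median in KO dips to -0.47 at 2 h before it rises to 1.5.

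At 2 h fewer of the genes passed than at 6 h in either genotype. In wt liver 4 genes rose and 0 fell, beside 6.53% and 6.17% of all genes, with a median of 0.27 against 0.02 over all genes; at an unadjusted p under 0.05, 13 were higher and 0 lower, beside 14.3% and 13.2% of all genes. The 4 called rises were a share of the list close to that of all genes. The 4 genes were Utp14a at 0.71 ± 0.16, Polr1b at 0.59 ± 0.15, Rrp1b at 0.52 ± 0.14 and Tbl3 at 0.44 ± 0.11 (limma adjusted p = 0.0171, 0.027, 0.0341 and 0.0234). These calls were not stable when an array of either group was dropped, which leaves 1 array there and also cut the calls over all genes. Over the 20 alternative settings the 4 differences were 0.50 to 0.91, 0.40 to 0.78, 0.44 to 0.59 and 0.35 to 0.52, in the same order.

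In KO liver 12 genes rose and 3 fell at 2 h, beside 10.6% and 20.8% of all genes, with a median of 0.21 against -0.07. The largest rises were those of Nop58 at 1.51 ± 0.32, Gnl3 at 1.34 ± 0.26, Nolc1 at 1.02 ± 0.27, Utp14a at 0.97 ± 0.16, Ppan at 0.87 ± 0.30 and Ltv1 at 0.79 ± 0.16. Utp14a, a small subunit factor, was at 7.73 and 7.41 in untreated KO, 8.68 and 8.40 at 2 h, and 8.55 and 8.52 at 6 h. It had thus reached its 6 h level by 2 h (limma adjusted p = 0.0019 at 2 h), and in KO its 6 h mean differed from its 2 h mean by less than the gap between replicates. The other rises were those of Polr1b, Ddx21, Nop56, Gar1, Wdr43 and Nop14, at 0.39 to 0.75. The calls of Ppan, Nop14 and Polr1b were lost in 11, 8 and 7 of 20 alternative settings. Polr1b and Utp14a passed at 2 h in both genotypes.

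The 3 genes that fell at 2 h in KO were Nhp2, Dkc1 and Tbl3. Nhp2 was at 8.17 and 8.32 in untreated KO, 7.51 and 7.63 at 2 h, and 8.85 and 8.82 at 6 h. It thus fell below both untreated arrays and then rose above them, by -0.67 ± 0.10 at 2 h (limma adjusted p = 0.00118) and 0.60 ± 0.10 at 6 h. In wt it was at 8.15 and 8.07 untreated and 8.18 and 8.12 at 2 h, and these overlapped. Dkc1, the enzyme of the same particle, was at 8.41 and 8.71 in untreated KO and at 8.04 and 8.13 at 2 h, a fall of -0.47 ± 0.16 (adjusted p = 0.0451). The wt difference of Dkc1 was -0.30 ± 0.16 (adjusted p = 0.251).

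Nop10 of the same particle also fell in KO at 2 h, by -0.58 ± 0.13 (limma adjusted p = 0.00691). Gar1, in contrast, rose by 0.53 ± 0.17 (adjusted p = 0.0361). The calls of Dkc1 and Tbl3 were lost in 10 and 17 of the 20 alternative settings, and that of Nhp2 in 0. Dropping untreated KO replicate 2, or else KO 2 h replicate 1, left 5 calls, of which 4 were rises. Quantile normalization gave 17 rises and 1 fall in place of 12 and 3.

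Replicates differed along the whole list. Untreated wt replicate 2 lay below replicate 1 for 48 of 53 genes, and KO 2 h replicate 1 lay above replicate 2 for 47. In treated wt, replicate 2 lay above replicate 1 for 49 genes at 2 h and 48 at 6 h. KO replicate 2 lay below replicate 1 for 36 genes untreated and 32 at 6 h. The median gene stood 0.16 above the untreated mean in untreated wt replicate 1 and -0.18 from it in replicate 2. At 2 h the medians were 0.14 and 0.34 in wt and 0.44 and 0.13 in KO. At 6 h they were 0.97 and 1.13 in wt and 1.25 and 1.24 in KO, above every untreated and 2 h array. The same median taken over all genes was -0.07 to 0.04 across the arrays.

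Between 2 h and 6 h, 40 genes rose and 0 fell in wt, beside 10.9% and 16.8% of all genes, with a median of 0.80. In KO 45 rose and 0 fell, beside 19.1% and 12.6%, with a median of 0.91. The largest difference in KO was that of Dkc1, at 1.97 ± 0.16 (limma adjusted p = 5.64e-05), and the smallest p belonged to Nhp2, at 1.27 ± 0.10 (adjusted p = 4.97e-05). In wt Heatr1 rose most, by 1.5 ± 0.18, and Dkc1 rose by 1.42 ± 0.16 (adjusted p = 0.000524 and 0.000354). In wt, 24 passed when wt 2 h replicate 1 was dropped and 25 when wt 6 h replicate 2 was. These comparisons share arrays with those against untreated liver.

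The 6 h differences ran in the same order in both genotypes for most of the list. Across the 53 genes, the 6 h differences of wt and KO correlated at a Pearson r of 0.90 and a Spearman rho of 0.89, and over all 17052 genes at 0.80 and 0.71. At 2 h the values were 0.76 and 0.72 for the list and 0.78 and 0.67 for all genes. These are correlations across genes, which are not independent replicates, and the arrays of the 2 axes were separate. The KO difference at 6 h exceeded the wt difference for 41 of 53 genes, which all rest on the same arrays. The median of KO less wt was 0.16 over the list and 0.03 over all genes, and no listed gene passed the test of this difference given below.

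**Figure D3:**
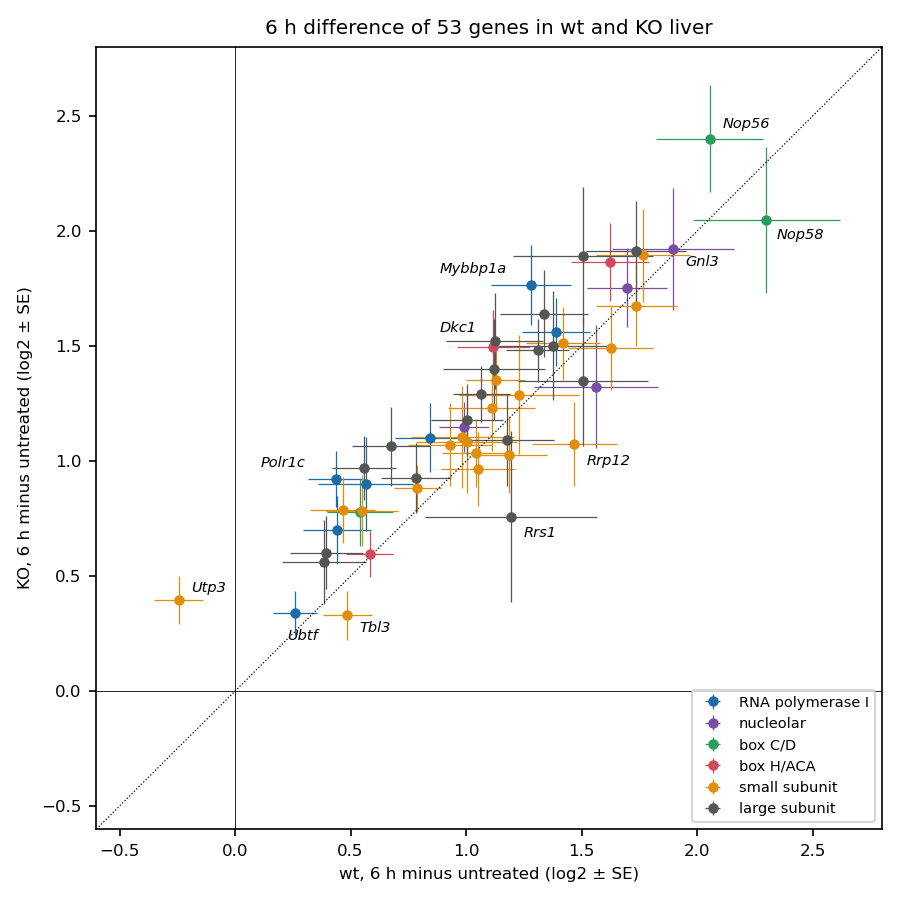
The 6 h minus untreated log2 difference of each of the 53 genes in wt (horizontal axis) and KO liver (vertical axis), with standard errors of the fit as bars, coloured by role; the dotted line marks equal values. Points lie along the line from Ubtf at the low end to Nop56 and Nop58 at the high end, and Utp3 is the 1 gene below 0 in wt.

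KO against wt within a condition gave few calls. In untreated liver 0 genes passed in limma, with 4 at an unadjusted p under 0.05 (3 higher and 1 lower in KO). Over all genes 0.00586% passed and 3.87% had an unadjusted p under 0.05. The smallest p there was that of Nol6, at 0.30 ± 0.10 (limma adjusted p = 1). At 2 h 1 gene passed, Nhp2, lower in KO by -0.58 ± 0.10 (adjusted p = 0.0284), beside 2.01% of all genes. That call was lost in 5 of 20 alternative settings, among them quantile normalization, the compared groups alone and the dropping of either wt 2 h array.

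At 6 h 3 genes were higher in KO and 0 lower, beside 4.09% and 4.93% of all genes. At an unadjusted p under 0.05, 11 were higher and 0 lower, beside 14.5% and 13.7%. Polr1c, a subunit shared by polymerases I and III, was at 9.39 and 9.55 in wt and 9.86 and 9.96 in KO, a difference of 0.44 ± 0.12 (limma adjusted p = 0.0491). Utp3, a small subunit factor, was at 6.87 and 6.99 in wt and 7.29 and 7.35 in KO, a difference of 0.38 ± 0.11 (adjusted p = 0.0489). Nol6, of the same role, was at 8.66 and 8.84 in wt and 9.14 and 9.14 in KO, a difference of 0.39 ± 0.10 (adjusted p = 0.0413). Both KO arrays lay above both wt arrays for these 3 genes and for 33 of the 53 in all, beside 29.7% of all genes. The count was 0 in a fit of the compared groups alone, and 0 without any 1 of 9 arrays, namely both untreated arrays of each genotype, both wt 2 h arrays, wt 6 h replicate 1 and both KO 6 h arrays. Mybbp1a had the largest difference, 0.56 ± 0.17, and did not pass (adjusted p = 0.0684).

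Subtracting the wt response from the KO response, which tests whether the genotypes responded differently, gave 0 of 53 genes that passed at either time in limma. Over all genes 0.0293% passed at 2 h and 0.487% at 6 h. At 2 h 3 of the 53 had an unadjusted p under 0.05, beside 15.3% of all genes, and the smallest adjusted p was 0.13, for Nhp2 at -0.71 ± 0.14. At 6 h 2 had an unadjusted p under 0.05, beside 16.2% of all genes. These were Utp3 at 0.64 ± 0.15 and Polr1c at 0.49 ± 0.17 (limma adjusted p = 0.095 and 0.202). The median over the 53 genes was 0.00 at 2 h and 0.16 at 6 h, against -0.10 and 0.03 over all genes. With 2 arrays a group, the missed threshold does not show that the genotypes responded alike.

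Most further genes of ribosome assembly that were not on the list moved in the same direction at 6 h. Of 37 other tested large subunit factors, 34 rose in wt and 33 in KO, and 0 fell. Eif6, which keeps the subunits apart, rose by 0.97 ± 0.10 in wt and 1.25 ± 0.10 in KO, and Gnl2 by 1.53 ± 0.15 and 1.38 ± 0.15. Of 33 other small subunit factors, 21 rose in wt and 25 in KO, Utp4 among them at 1.43 ± 0.17 and 1.67 ± 0.17. Of 16 other polymerase I genes, 8 rose and 1 fell in wt, with a median of 0.25. In KO 10 of these rose and 0 fell, with a median of 0.52. Of 10 other nucleolar and particle genes, 7 rose in each genotype, and 1 fell in wt. Over all 96 other assembly genes, 70 rose and 2 fell in wt, beside 16.5% and 22.0% of all genes, with a median of 0.57. In KO 75 rose and 0 fell, beside 15.8% and 19.1%, with a median of 0.71. The 2 that fell in wt were Pih1d1 and Polr2f, the latter a subunit of all 3 nuclear polymerases. In wt, 41 rose when untreated wt replicate 2 was dropped and 44 when wt 6 h replicate 2 was.

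At 2 h, 4 of the 96 rose and 2 fell in wt, beside 6.53% and 6.17% of all genes, and 18 rose and 10 fell in KO, beside 10.6% and 20.8%. The falls in KO included Nat10, an RNA acetyltransferase, at -0.66 ± 0.12, and Ruvbl1, an ATPase of particle assembly, at -0.74 ± 0.17. All 11 called large subunit factors rose there, with Gnl2 at 0.86 ± 0.15 and Sbds at 0.68 ± 0.14.

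Genes of RNA polymerase III, which makes the smallest ribosomal RNA and the transfer RNAs, passed in both directions. At 6 h 3 of 18 rose and 2 fell in wt, beside 16.5% and 22.0% of all genes, and 7 rose and 1 fell in KO, beside 15.8% and 19.1%. Polr3d rose by 1.75 ± 0.25 in wt and 1.57 ± 0.25 in KO, and Polr3e by 1.24 ± 0.17 and 1.52 ± 0.17. Of 13 genes of the exosome and of RNA trimming, 5 rose and 1 fell in wt, and 9 rose and 2 fell in KO. C1d, a cofactor of the exosome, fell in both, by -0.94 ± 0.11 and -0.79 ± 0.11.

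**Figure D4:**
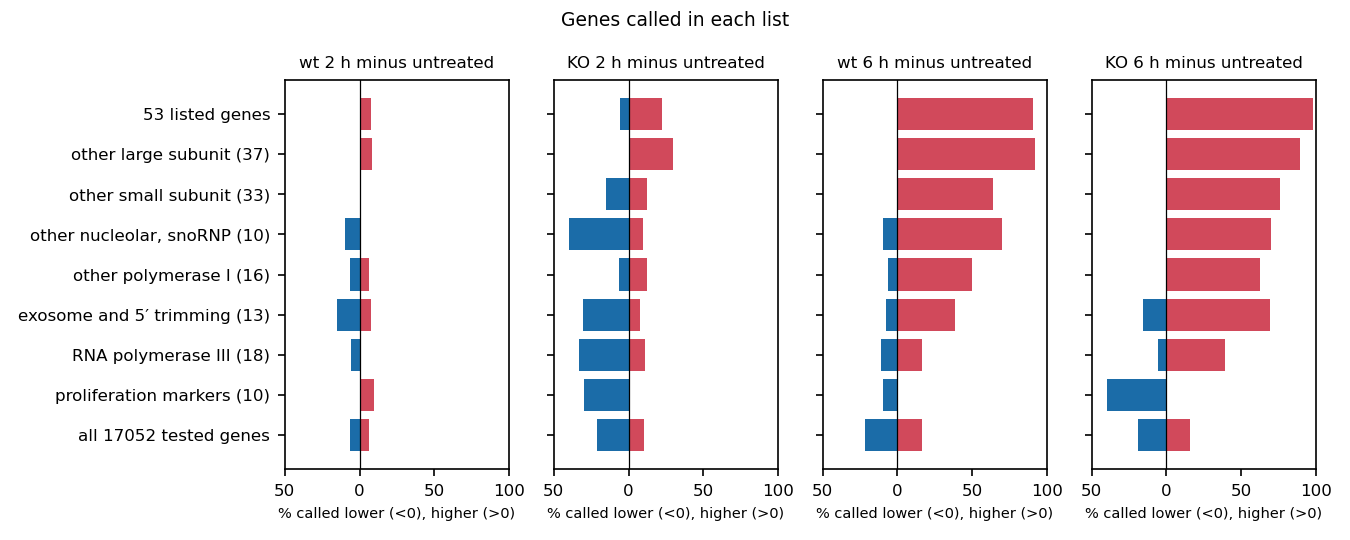
Share of each gene list called higher (red, right of 0) or lower (blue, left of 0) against untreated liver, in 4 panels for wt and KO at 2 h and 6 h, with the number of tested genes in brackets and all 17052 tested genes in the last row. At 6 h the 53 genes and the other large subunit factors stand far to the right of all genes in both genotypes, whereas at 2 h their bars are shorter.

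Myc, which is known to activate ribosome genes, did not follow the same course in the 2 genotypes. The wt arrays had Myc log2 intensities of 6.33 and 6.88 untreated, 8.23 and 8.33 by 2 h and 11.33 and 11.04 by 6 h. The KO arrays had 8.09 and 9.36 untreated, 10.62 and 10.75 by 2 h and 10.01 and 8.66 by 6 h. Untreated KO arrays lay above untreated wt arrays, at a difference of 2.12 ± 0.44 that did not pass (limma adjusted p = 0.645). At 6 h the order was turned, and KO lay below wt by -1.85 ± 0.44 (adjusted p = 0.0308). This call was lost in 6 of 20 alternative settings, and when KO 6 h replicate 2 was dropped the difference was -1.17 (limma adjusted p = 0.183).

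Against untreated liver, Myc rose in wt by 1.67 ± 0.44 at 2 h and 4.58 ± 0.44 at 6 h (limma adjusted p = 0.0333 and 4.9e-05). In KO it rose by 1.95 ± 0.44 at 2 h (adjusted p = 0.00814), and the 6 h difference was 0.61 ± 0.44 (adjusted p = 0.316). The difference between the responses at 6 h, KO less wt, was -3.97 ± 0.62 (adjusted p = 0.0262), a call that was lost in 8 of 20 alternative settings. The listed genes in turn had 6 h medians of 1.12 in wt and 1.15 in KO. The part of Myc in their levels was not tested.

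**Figure D5:**
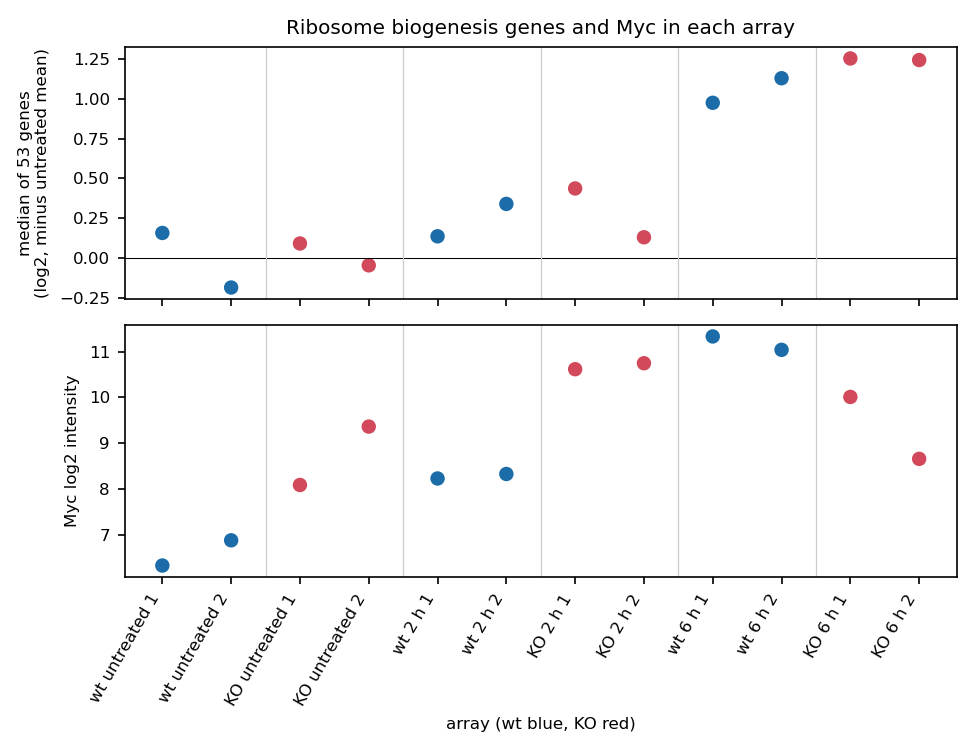
Upper panel, the median over the 53 genes of log2 intensity minus the untreated mean, in each of the 12 arrays; lower panel, the log2 intensity of Myc in the same arrays (wt blue, KO red). The medians of the 4 arrays at 6 h lie at 0.97 to 1.25, whereas Myc at 6 h is 11.33 and 11.04 in wt and 10.01 and 8.66 in KO.

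Of the 13 tested genes of the MYC network, 6 rose and 3 fell in wt at 6 h, beside 16.5% and 22.0% of all genes. In KO 3 rose and 3 fell, beside 15.8% and 19.1%, which is near the shares over all genes. Max, the partner that MYC needs to bind DNA, rose by 0.83 ± 0.16 and 0.89 ± 0.16. Mxd1, which competes for MAX and represses, stood in wt at 7.10 and 6.97 untreated, 7.59 and 7.54 by 2 h and 9.24 and 8.78 by 6 h. The KO arrays stood at 7.01 and 6.98 untreated, 8.60 and 8.58 by 2 h and 7.46 and 6.61 by 6 h. It thus stood highest at 6 h in wt and at 2 h in KO, and its response at 6 h differed between genotypes by -1.93 ± 0.33 (limma adjusted p = 0.0343). Mxd4, a repressor of the same family, fell by -1.03 ± 0.09 in wt and -0.91 ± 0.09 in KO. Mlxipl, the carbohydrate response factor of liver, fell by -1.85 ± 0.18 and -1.74 ± 0.18.

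Genes of cell division were not called higher at 6 h. Of 10 tested proliferation genes, 0 rose in limma in either genotype, also at an unadjusted p under 0.05. In wt 1 fell and in KO 4 fell, beside 22.0% and 19.1% of all genes. The mean log2 intensity of the 10 genes was 5.681 to 6.245 over the arrays, near the minimum mean log2 of 5, so a rise could be missed. Mki67, a marker of cycling cells, was at 6.70 and 5.93 in untreated KO and at 5.16 and 4.89 at 6 h, a fall (limma adjusted p = 0.00298) whose size is not given because the later values lie about the minimum mean log2 of 5. The median log2 difference of this list was -0.15 in wt and -0.39 in KO.

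Of all genes, 16.5% were called higher and 22.0% lower at 6 h in wt, and 15.8% and 19.1% in KO. Beside these shares, most neutrophil markers rose in wt. Of 12 neutrophil markers, 8 rose and 1 fell in wt at 6 h, and 1 rose in KO. Their mean log2 intensity was 5.80 to 5.93 in the untreated arrays, 8.13 and 7.50 in wt at 6 h, and 6.51 and 6.26 in KO at 6 h. In KO, where these markers were lower at 6 h, the median of the 53 genes was 1.15, against 1.12 in wt. Of 12 Kupffer cell and macrophage markers, 1 rose and 6 fell in wt at 6 h, and 2 rose and 4 fell in KO. Their mean lay at 8.86 to 9.03 untreated and at 8.41 to 8.83 at 6 h over both genotypes. Of 4 tested bile duct markers, Epcam and Sox9 rose in both genotypes, and the mean was 6.03 to 6.27 untreated and 6.33 to 7.08 at 6 h. Of 8 hepatocyte markers, Ttr fell in both genotypes and 0 rose. Of 8 endothelial markers 3 rose and 5 fell in wt and 3 fell in KO, and of 9 stellate cell markers 1 rose and 4 fell in wt and 0 passed in KO (1 at an unadjusted p under 0.05). Of 6 lymphocyte markers 1 rose and 1 fell in wt, close to the shares over all genes. In KO 0 lymphocyte markers passed, also at an unadjusted p under 0.05. The part of these cell types in the listed genes' levels was not tested.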

How the data were processed

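Total RNA of 12 liver samples was hybridised to 1 array each. Per the submitters' processing notes, Affymetrix Expression Console and RMA were used, with no version given. The authors deposited normalized linear intensities, which were converted to log2 here with no pseudocount added. Symbols came from the platform's annotation. Of 35556 probe sets, 21218 carried 1 symbol, 1881 several and 12457 none. A tested gene had a 1-symbol probe set with a mean log2 of at least 5, and the probe set with the highest mean was used. The 17052 genes entered limma 3.58.1, run in R 4.3.3 (lmFit, eBayes without a trend, 6 group means, 6 residual and 4.33 prior degrees of freedom). P-values were adjusted by Benjamini-Hochberg within each of 11 comparisons. The scripts were tested on simulated data for wt at 6 h against untreated. There, 14% of added log2 differences of 0.5 and 92% of those of 1 were recovered. Of the genes called, 6.71% were false.

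The listed genes, the other lists and the tests were chosen with earlier results of these data known. Genes are named by role, by the smallest p, by the largest and smallest change, where they missed a threshold that most passed, and where they opposed the majority. Up to 4 called genes of each other list were named by smallest p, and the choice of Nop10, Pih1d1, Polr2f, Mxd1, Mxd4 and Mlxipl was made after their values were seen. Replicate numbers did not pair the arrays: over 15 pairs of groups the deviations of same-numbered arrays correlated at -0.13 to 0.19, and 4 pairs exceeded 0.1. Alternatives were no filter, a variance trend, log2 of the value plus 16, quantile normalization, averaging a gene's probe sets, a minimum mean log2 of 7, a fit of the compared groups alone, a replicate block, and dropping each array in turn. The same alternatives for Myc, Mxd1 and the other assembly genes were added after the data were seen. No promoter window was searched for Fbl, Rrp12, Rrs1, Nol6, Bop1 and Tbl3. Figures were drawn with matplotlib 3.10.9 in Python 3.11.15.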

Additional observations from a re-analysis of the deposited data

Results flagged for a closer look

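A pair of MYC network genes changed by a different amount in KO than in wt liver at 6 h, by the test of the difference itself (limma, adjusted over 17052 genes). The KO response of Myc minus its wt response was -3.97 ± 0.62 on the log2 scale (adjusted p = 0.0262). That of Mxd1 was -1.93 ± 0.33 (adjusted p = 0.0343). Each call was lost in 8 of 20 alternative settings, with limma adjusted p-values of 0.00361 to 0.11 for Myc and 0.00136 to 0.132 for Mxd1. None of the 53 ribosome biogenesis genes passed the same test at 6 h, and 2 had an unadjusted p under 0.05, beside 16.2% of all genes.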

How the results depend on the processing

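With 2 arrays a group, single arrays move the counts. Leaving out each array in turn gave 39 to 50 genes at 6 h in wt and 47 to 52 in KO, 0 to 8 and 5 to 18 at 2 h, and 24 to 43 (wt) and 35 to 47 (KO) for 6 h against 2 h. KO against wt then gave 0 in untreated liver, 0 to 1 at 2 h and 0 to 3 at 6 h, and both tests of the response difference gave 0. For KO against wt at 2 h (1 gene), a mean log2 of at least 7 and log2 of the value plus 16 gave 2, and quantile normalization and the compared groups alone gave 0. For KO against wt at 6 h (3 genes), no filter gave 1 and the compared groups alone gave 0. The replicate number as a block gave 1 there, and in the other comparisons 49 (wt) and 52 (KO) at 6 h, 5 and 13 at 2 h, 40 and 45 for 6 h against 2 h, and 1 for KO against wt at 2 h. Of 208 calls of listed genes over the comparisons, the compared groups alone lost 18, quantile normalization 9 and log2 of the value plus 16 lost 0. In the 20 settings run, no called difference of a listed gene changed sign. A group left with 1 array was assumed to vary like the others.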
